A study of Mus musculus with 6 samples.

Results

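The 38 genes described here are the histone deacetylases, the sirtuins and the lysine demethylases of the mouse, enzymes that take acetyl or methyl groups off lysines of histones and other proteins. They are every gene of the table whose symbol is Hdac, Sirt or Kdm followed by a digit, out of 19233 genes in all. There were 12 Hdac genes, 7 Sirt genes and 19 Kdm genes, including the pseudogenes Hdac1-ps and Kdm4dl. Polysome fractions, which collect mRNAs loaded with several ribosomes, were sequenced from RAW264.7, a macrophage-like line of male mice. All 6 libraries were titled M2, the alternatively activated state, and 3 came from cells given BMH-21, whose dose was 500 nM, for 24 h once 24 h had passed since polarization, against 3 from cells given DMSO, its solvent. BMH-21 inhibits RNA polymerase I, which transcribes the precursor of ribosomal RNA. The comparison asked how it changed the polysome-bound mRNAs.

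The labels limit what the groups stand for. Their treatment text describes macrophages derived from bone marrow, given either 20 ng/ml IL-4 or LPS and interferon gamma, each at 50 ng/ml, so the agent that polarized this line is not given for it. DMSO replicate 2 is labelled polyadenylated RNA and the other 5 libraries total RNA. The labels do not say that replicates were separate cultures, so p-values measure the spread between these libraries, which may be technical.

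Histone acetylation loosens chromatin and marks active promoters and enhancers, and zinc-dependent deacetylases of the Hdac family remove it as parts of corepressor complexes. Sirtuins remove acetyl and longer acyl groups too, but consume NAD in doing so, and different members sit in the nucleus, the cytosol and the mitochondria. Lysine demethylases work either as flavin oxidases or, in most cases, as iron-dependent oxygenases of the Jumonji family, and each subfamily prefers particular methylated lysines. In macrophages these enzymes are known to set how strongly inflammatory and alternative activation genes respond.

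Values are FPKM, fragments scaled for transcript length and library size, so levels can be compared between genes per length. Steps between low values implied 18770000, 22560000 and 20800000 reads in the BMH-21 libraries, against 24070000, 21610000 and 22620000 in the DMSO libraries, and 1 read on a transcript of 1 kb was then worth 0.0415 to 0.0533 FPKM. The BMH-21 libraries held 9195 to 9261 genes at 1 FPKM or more, against 9699 to 9770 in the DMSO libraries. The part of this difference in the results was not tested. Of 10 macrophage markers, 10 were in the table and 9 passed the filter of 1 FPKM or more in at least 3 libraries, with summed levels of 18580 to 19800 FPKM in BMH-21 libraries and 10810 to 11210 in DMSO libraries. Most of that sum was Lyz2, at a mean of 17500 FPKM with BMH-21 and 9471 with DMSO, and of the 9 tested markers 5 were called higher and 4 lower at an adjusted p below 0.05 (limma). Mertk was near 0. Of 8 M2 markers 4 were analysed here, of which 3 were called lower with BMH-21 and 1 higher, beside 58.4% and 19.9% of all tested genes. After median-ratio scaling of the libraries 1 was called lower and 1 higher, beside 35.3% and 38.2%. Arg1 averaged 0.692 ± 0.0444 FPKM with BMH-21 and 4.29 ± 0.147 with DMSO (SD, n = 3 each), and passed the filter only through DMSO. Mrc1 and Clec10a, also called lower, had log2 fold changes of -0.20 and -0.30. Egr2, the M2 marker called higher, averaged 7.40 FPKM with BMH-21 and 2.73 with DMSO, a log2 fold change of 1.16. The summed markers of B cells reached at most 0.0918 FPKM in any library and those of fibroblasts at most 0.0649, while Lck, a T cell marker, averaged 1.98 FPKM with BMH-21 and 3.28 with DMSO. Cd4, the other T cell marker in the table, averaged 0.0201 FPKM with BMH-21 and 0.0141 with DMSO.

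One DMSO library stood apart from the other two in a way its label does not give. The 5 epithelial markers Epcam, Krt8, Krt18, Krt19 and Cdh1 summed to 10.9 to 14.2 FPKM in the BMH-21 libraries. They summed to 9.73 FPKM in DMSO replicate 3, but to 0 and 0.088 in DMSO replicates 1 and 2. The part of these markers and of Lck in the results below was not tested. Results are therefore given also without DMSO replicate 3, and without DMSO replicates 1 and 2, which leaves only libraries that hold the markers. Over all genes the correlation between libraries was still 0.997 to 0.9978 within groups, and 0.9627 to 0.964 between them.

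Summed over their genes, polysome-bound mRNAs of the Hdac and Sirt families were lower after BMH-21 as deposited and after median-ratio, upper-quartile and equal-total scaling of the libraries. Those of the Kdm family were lower in the table as deposited but level with DMSO after median-ratio scaling, which divides each library by its median ratio to the average of all libraries. The summed level of the Hdac genes was 55.0, 56.6 and 55.9 FPKM in the BMH-21 libraries, against 83.3, 83.6 and 84.4 in the DMSO libraries. For the Sirt genes it was 53.5, 53.0 and 55.7 FPKM with BMH-21, against 69.8, 70.1 and 71.1 with DMSO. For the Kdm genes it was 36.1, 34.7 and 35.5 FPKM with BMH-21, against 42.9, 44.1 and 44.0 with DMSO. As deposited, the sums of no family overlapped between groups, and they came to 66.7%, 76.9% and 81.1% of the DMSO mean in the order Hdac, Sirt, Kdm. After median-ratio scaling they came to 81.8%, 94.3% and 99.5%, and the Kdm sums overlapped. The order of the families by this percentage was the same in both. A value in a polysome fraction combines how much of an mRNA the cells held with how much of it was on polysomes, and fewer cells of a kind cannot be told apart from less RNA per cell. No unfractionated RNA was used here.

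**Figure D1:**
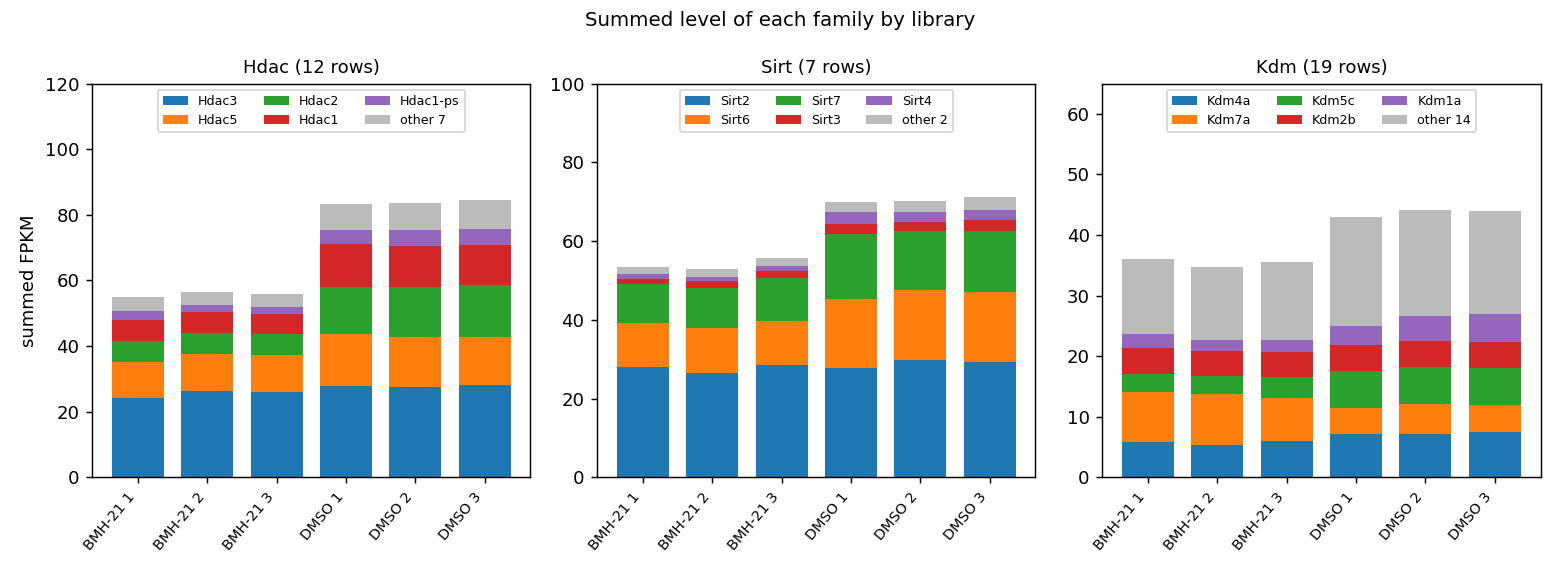
Stacked bars give the summed FPKM of each family in each library (BMH-21 replicates 1 to 3, then DMSO replicates 1 to 3), with the 5 most abundant members in colour and the rest in grey. In these values as deposited all BMH-21 bars are shorter than all DMSO bars, while the Hdac3 and Sirt2 segments stand at 91.7% and 95.2% of their DMSO means.

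Gene by gene, 27 of the 38 reached 1 FPKM in at least 3 libraries and were tested with limma on log2(FPKM + 1), together with all other genes that did, 9748 in all. At an adjusted p below 0.05, 21 members were lower with BMH-21, 1 was higher and 5 did not pass. Of all tested genes 78.3% were called, 58.4% lower and 19.9% higher, so a gene called lower was the common case in this table. By family, 7 of 7 tested Hdac genes, 6 of 7 Sirt genes and 8 of 13 Kdm genes were called lower, and the single gene called higher was Kdm7a. The 7 Hdac genes include the pseudogene Hdac1-ps, whose log2 fold change of -0.81 is also the Hdac median given next. How reads were split between it and Hdac1 is not given. The median log2 fold change as deposited was -0.81 over the Hdac genes, -0.43 over the Sirt genes and -0.30 over the Kdm genes, beside -0.23 over all tested genes. Relative to that all-gene median the families stood at -0.57, -0.20 and -0.07. With no filter the 11 members left out of the Hdac and Kdm families are added, and the all-gene median moves to -0.04. The families then stood at -0.33, -0.39 and -0.18, so the order of Hdac and Sirt rests on the filter. No Sirt gene is added, so the Sirt value moved only because the all-gene median did. Kdm4b and Sirt5 passed the filter only through the DMSO libraries, so the filter itself required them to be lower with BMH-21. The libraries of the groups did not overlap for 24 of the 27 tested members, beside 79.8% of all tested genes. In 23 of them BMH-21 was below, beside 59.5% of all tested genes, and in 1 above, beside 20.3%. Without DMSO replicate 3, 6 Hdac, 5 Sirt and 8 Kdm genes were called lower, beside 5511 of the 9748 tested genes. Without DMSO replicates 1 and 2, which leaves 1 DMSO library, the family medians relative to all tested genes were -0.63, -0.30 and -0.11.

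**Figure D2:**
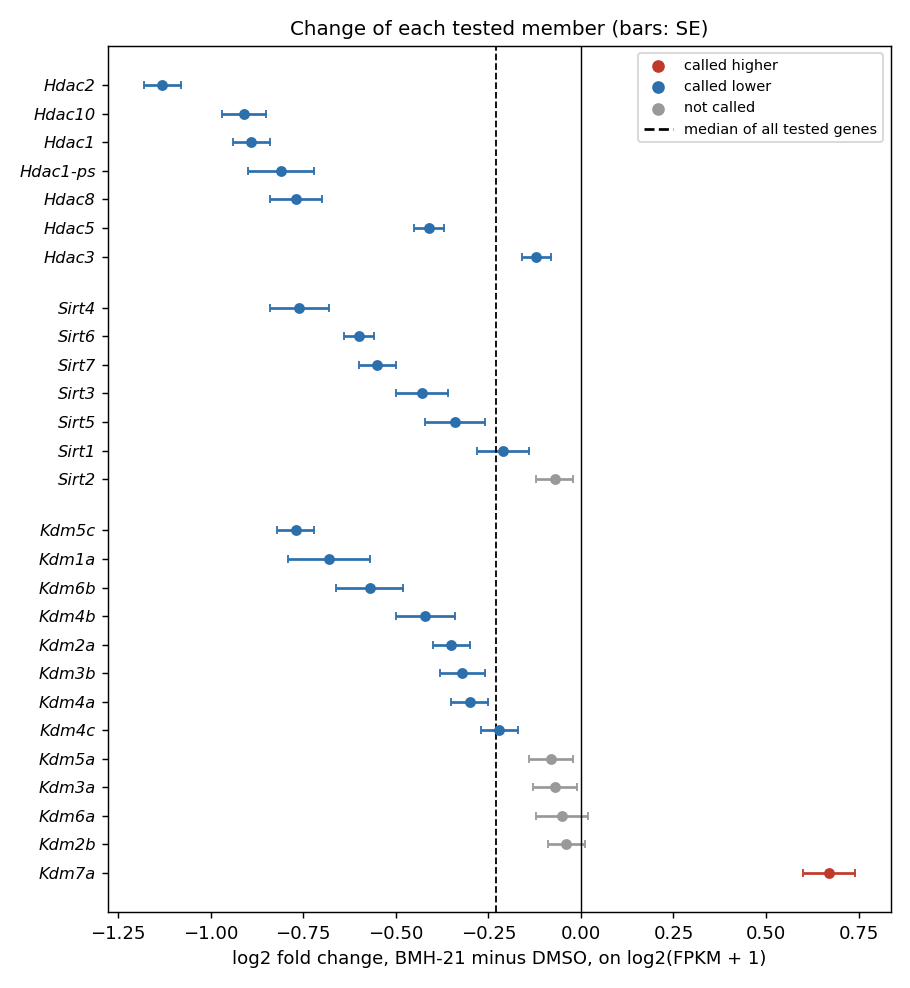
Each point is the log2 fold change of 1 tested member, BMH-21 minus DMSO on log2(FPKM + 1), with its SE from limma (n = 3 libraries each). The dashed line is the median of all tested genes, -0.23. Hdac2 is farthest to the left at -1.13 and Kdm7a is the single point to the right of 0, at 0.67.

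Hdac1 and Hdac2 are near-duplicate class I deacetylases and the catalytic subunits of the NuRD, SIN3 and CoREST corepressor complexes. Hdac2, on chr10:36974544-37001889 of GRCm38, plus strand, had 6.11, 6.61 and 6.38 FPKM in the BMH-21 libraries and 14.5, 15.3 and 15.6 FPKM in the DMSO libraries. The groups lay far apart, with the highest BMH-21 library under the lowest DMSO library. On the log2(FPKM + 1) scale this was the largest fall of any tested member, a log2 fold change of -1.13 ± 0.05 (SE, adjusted p = 2.09e-08), to 42.1% of the DMSO mean. As a percentage of the DMSO mean the low genes Hdac10, at 39.6%, and Hdac8 stood lower, and with a pseudocount of 0.1 FPKM Hdac10 was at -1.28 and Hdac2 at -1.24. A fall of 1 log2 unit or more was called for 5.24% of all tested genes. The 250 bases before its RefSeq start, chr10:36974294-36974543, are shown because Hdac2 fell furthest on the log2(FPKM + 1) scale. Capitals mark a GC box, the letters bound by Sp1-type factors, here on the strand opposite the gene.
Hdac2 promoter: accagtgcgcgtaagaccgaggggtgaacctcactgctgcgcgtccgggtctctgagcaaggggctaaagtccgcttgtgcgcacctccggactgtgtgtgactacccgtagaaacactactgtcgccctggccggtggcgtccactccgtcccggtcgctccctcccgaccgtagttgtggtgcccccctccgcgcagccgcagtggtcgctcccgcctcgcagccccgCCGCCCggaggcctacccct

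Hdac1, on chr4:129516104-129542713, had 6.52, 6.46 and 6.01 FPKM with BMH-21 and 13.0, 12.6 and 12.2 FPKM with DMSO. It too fell in every BMH-21 library below every DMSO library, by 0.89 ± 0.05 on the log2 scale (SE, adjusted p = 8.96e-08). Hdac1-ps, a pseudogene at chr17:78491565-78493541, averaged 2.29 ± 0.449 FPKM with BMH-21 and 4.71 ± 0.250 with DMSO (SD, n = 3 each), a log2 fold change of -0.81 ± 0.09 (SE, adjusted p = 1.43e-05). The Hdac1 transcript matched the transcript annotated at that pseudogene at 99.4% of bases over 1444 bases, and the table's gene Gm4864 at 94.6% over 1469. How reads were split between these copies is not given, so the values of Hdac1 and Hdac1-ps are uncertain. The ratio of Hdac1 to Hdac1-ps ran from 2.33 to 3.14 in BMH-21 libraries and from 2.50 to 2.94 in DMSO libraries, and these ranges overlapped.

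Hdac3, the catalytic subunit of the NCoR and SMRT complexes, was the most abundant Hdac mRNA and, of the 7 tested Hdac genes as deposited, had the smallest fall. It had 24.2, 26.3 and 26.1 FPKM in the BMH-21 libraries and 27.9, 27.6 and 28.1 FPKM in the DMSO libraries. The groups did not overlap, but the gap was narrow. Its log2 fold change of -0.12 ± 0.04 passed the test (SE, adjusted p = 0.025), lay above the all-gene median, and turned to 0.16 with median-ratio scaling. Without BMH-21 replicate 1 its adjusted p was 0.0955, without DMSO replicate 3 it was 0.0706, and without DMSO replicates 1 and 2 it was 0.125.

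On the per-length scale, Hdac1 stood at 0.270, 0.246 and 0.230 of the Hdac3 level in the BMH-21 libraries, against 0.467, 0.455 and 0.436 in the DMSO libraries. Hdac2 stood at 0.253, 0.251 and 0.244 of Hdac3 with BMH-21, against 0.518, 0.555 and 0.556 with DMSO. Neither ratio overlapped between groups, and dividing a library by 1 factor leaves a ratio within it as it was. Hdac3 alone made up 43.9% to 46.8% of the summed Hdac level in BMH-21 libraries and 33.0% to 33.5% in DMSO libraries.

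Hdac8, the class I enzyme that deacetylates the cohesin subunit SMC3, had 0.991, 1.10 and 0.894 FPKM with BMH-21 and 2.15, 2.49 and 2.56 FPKM with DMSO. It fell by 0.77 ± 0.07 on the log2 scale (SE, adjusted p = 3.29e-06), to 41.5% of the DMSO mean. Hdac10, a class IIb enzyme best known as a polyamine deacetylase, had 1.45, 1.17 and 1.45 FPKM with BMH-21 and 3.45, 3.46 and 3.35 with DMSO. Its log2 fold change was -0.91 ± 0.06 (SE, adjusted p = 5.15e-07). For both genes every BMH-21 library lay below every DMSO library. Because 1 FPKM is added before taking logs, these folds understate the change of such low genes.

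Hdac5 is a class IIa enzyme that shuttles between nucleus and cytosol and holds MEF2 transcription factors in check. It was the only class IIa gene that passed the filter, with 11.1, 11.1 and 11.3 FPKM in BMH-21 libraries and 15.7, 15.1 and 14.8 FPKM in DMSO libraries. Replicates lay close together and the groups were clearly separate. It fell by 0.41 ± 0.04 on the log2 scale (SE, adjusted p = 7.73e-06).

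**Figure D3:**
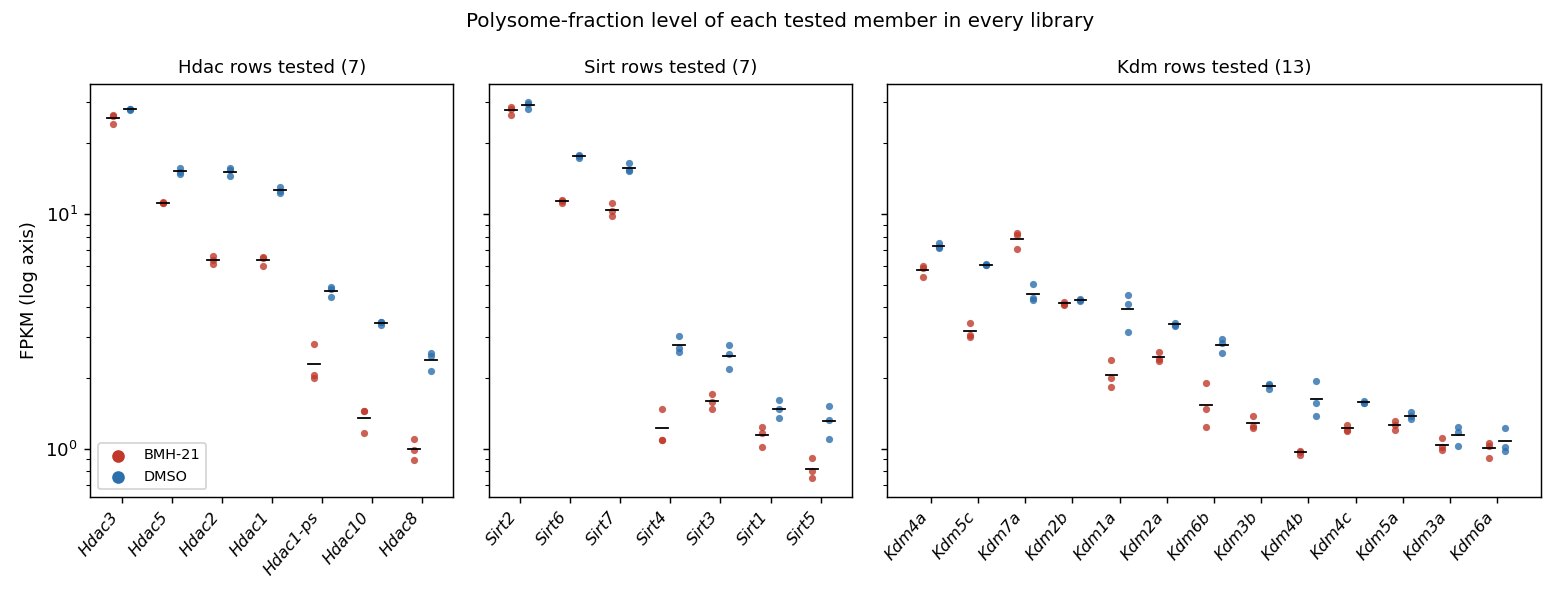
Points give the FPKM (log axis) of each tested member in each library, BMH-21 in red left of DMSO in blue, with a bar at each group mean. Members run from most to least abundant within a family. Hdac3 and Sirt2 lie near the top in both groups, and Kdm7a is the single gene whose red points all lie above the blue ones.

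Sirt2, a mostly cytosolic sirtuin that deacetylates alpha-tubulin, was the most abundant member of all 38. It had 27.9, 26.4 and 28.5 FPKM in the BMH-21 libraries and 27.9, 29.8 and 29.3 FPKM in the DMSO libraries, and the groups overlapped. Its log2 fold change of -0.07 ± 0.05 did not pass (SE, adjusted p = 0.187), but it was called higher with median-ratio scaling, at 0.22, and with upper-quartile scaling, at 0.16, and called lower with equal column totals, at -0.19 (adjusted p = 0.00356). Sirt2 held 49.8% to 52.2% of the summed sirtuin level in BMH-21 libraries, against 39.9% to 42.6% in DMSO libraries. It ranked above Hdac3 in both groups, with ranges apart in BMH-21 libraries and overlapping in DMSO libraries.

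The chromatin-bound sirtuins Sirt6 and Sirt7 came next in level. Sirt6, which deacetylates histone H3 at telomeres and at glycolysis and NF-kB target genes, had 11.3, 11.5 and 11.1 FPKM with BMH-21 and 17.4, 17.6 and 17.8 FPKM with DMSO. It fell by 0.60 ± 0.04 on the log2 scale (SE, adjusted p = 3.79e-07). Sirt7, a nucleolar sirtuin that binds ribosomal DNA and associates with RNA polymerase I, had 9.75, 10.3 and 11.1 FPKM with BMH-21 and 16.5, 15.2 and 15.4 FPKM with DMSO. It fell by 0.55 ± 0.05 (SE, adjusted p = 6.86e-06). In both genes the BMH-21 libraries lay well below the DMSO libraries, and both calls held under every scaling. The level of Sirt6 relative to Sirt2 was 0.389 to 0.434 in BMH-21 libraries and 0.592 to 0.624 in DMSO libraries.

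Sirt1, the nuclear sirtuin that deacetylates p53 and the NF-kB subunit p65, was low at 1.17, 1.24 and 1.02 FPKM with BMH-21 and 1.47, 1.35 and 1.61 FPKM with DMSO. Its log2 fold change of -0.21 ± 0.07 passed (SE, adjusted p = 0.0143) and matched the all-gene median to within 0.02. The call was lost without BMH-21 replicate 3, at an adjusted p of 0.0588, and without DMSO replicate 3, at 0.0576. With median-ratio scaling the value was -0.04 and did not pass.

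All 3 mitochondrial sirtuins were lower, and their summed level was 3.32, 3.60 and 3.98 FPKM in BMH-21 libraries against 6.66, 6.10 and 6.95 in DMSO libraries. Sirt4, known for restraining glutamate dehydrogenase, had 1.09, 1.09 and 1.48 FPKM with BMH-21 and 3.03, 2.59 and 2.67 FPKM with DMSO. It showed the largest sirtuin fall, 0.76 ± 0.08 on the log2 scale (SE, adjusted p = 1.13e-05), to 44.2% of the DMSO mean. Sirt3, the main mitochondrial deacetylase, averaged 1.59 ± 0.112 FPKM with BMH-21 and 2.49 ± 0.291 with DMSO, a log2 fold change of -0.43 ± 0.07 (adjusted p = 0.000298). Sirt5, which removes succinyl and malonyl groups, averaged 0.822 ± 0.0839 FPKM with BMH-21 and 1.32 ± 0.213 with DMSO, a log2 fold change of -0.34 ± 0.08 (adjusted p = 0.00224). In none of the 3 did the groups overlap. For Sirt5 the filter itself required this and the lower level, since it passed only through DMSO. The value of Sirt5 is uncertain because 24 other genes carry a stretch at least 90% identical to its transcript over 200 bases or more. That of Sirt3 is uncertain because its exons overlap those of Ric8a and Psmd13 on the other strand, and the library kit is not stated to mark strand. The 250 bases before the RefSeq start of Sirt4, chr5:115484298-115484547 on the minus strand, are shown as the sirtuin that fell furthest, with capitals on the letters of an E2F site. They lie inside the gene as GENCODE annotates it, which starts further upstream.
Sirt4 promoter: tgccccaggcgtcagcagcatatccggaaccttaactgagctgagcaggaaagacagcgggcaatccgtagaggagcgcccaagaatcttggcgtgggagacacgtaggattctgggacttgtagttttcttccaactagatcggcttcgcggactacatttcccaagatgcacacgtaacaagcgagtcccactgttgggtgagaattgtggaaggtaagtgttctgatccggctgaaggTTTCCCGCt

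Among the demethylases, Kdm1a is the flavin oxidase LSD1, which acts on mono- and dimethylated lysine 4 of histone H3 within the CoREST complex. It had 2.38, 1.83 and 2.01 FPKM with BMH-21 and 3.14, 4.12 and 4.53 FPKM with DMSO. The DMSO libraries were widely spread, with replicate 1 lowest, but all lay above the BMH-21 libraries. It fell by 0.68 ± 0.11 on the log2 scale (SE, adjusted p = 0.000184).

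Kdm2a and Kdm2b bind unmethylated CpG islands through a zinc finger, and Kdm2b recruits a Polycomb complex there. Kdm2a averaged 2.45 ± 0.123 FPKM with BMH-21 and 3.39 ± 0.0512 with DMSO (SD, n = 3 each), and fell by 0.35 ± 0.05 on the log2 scale (SE, adjusted p = 0.000146). Kdm2b had 4.23, 4.08 and 4.15 FPKM with BMH-21 and 4.25, 4.31 and 4.32 FPKM with DMSO, almost the same level. Its log2 fold change of -0.04 ± 0.05 did not pass (SE, adjusted p = 0.46), and was 0.20, called higher, with median-ratio scaling and -0.14, called lower, with equal column totals (adjusted p = 0.0225). Its exons overlap those of Rnf34 on the other strand over 627 bases, so its value is uncertain.

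Kdm3a, Kdm3b and the Kdm4 genes demethylate lysine 9 of histone H3, and Kdm4 enzymes also lysine 36. Kdm3a averaged 1.04 ± 0.0685 FPKM with BMH-21 and 1.15 ± 0.111 with DMSO (SD, n = 3 each), with overlapping groups and a log2 fold change of -0.07 ± 0.06 that did not pass (adjusted p = 0.304). Kdm3b averaged 1.28 ± 0.0864 FPKM with BMH-21 and 1.85 ± 0.0488 with DMSO, and fell by 0.32 ± 0.06 on the log2 scale (adjusted p = 0.00046). With quantile normalization its value was -0.06 and did not pass. The exons of Kdm3b share 3468 bases with those of Gm26538 on the other strand, so its value is uncertain. Kdm4a, the most abundant demethylase in DMSO libraries, had 5.88, 5.40 and 5.99 FPKM with BMH-21 and 7.21, 7.15 and 7.54 FPKM with DMSO. It fell by 0.30 ± 0.05 (adjusted p = 0.000372), but with median-ratio scaling its value was -0.04 and did not pass. Kdm4b had 0.979, 0.941 and 0.972 FPKM with BMH-21 and 1.95, 1.38 and 1.56 FPKM with DMSO, a log2 fold change of -0.42 ± 0.08 (adjusted p = 0.000754). Kdm4c had 1.21, 1.26 and 1.19 FPKM with BMH-21 and 1.60, 1.57 and 1.57 FPKM with DMSO, a log2 fold change of -0.22 ± 0.05 (adjusted p = 0.00386). Neither overlapped between groups, which for Kdm4b the filter itself required, since it passed only through DMSO. Without DMSO replicates 1 and 2, Kdm4c stood at an adjusted p of 0.0602, and with median-ratio scaling it was at -0.05 and did not pass.

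The Kdm5 enzymes remove trimethyl groups from lysine 4 of histone H3, a mark of active promoters. Kdm5c, X-linked at chrX:152233020-152274535, had 3.04, 3.00 and 3.43 FPKM in BMH-21 libraries and 6.03, 6.08 and 6.12 FPKM in DMSO libraries. The DMSO libraries lay almost on top of each other, far above the BMH-21 libraries. This was the largest fall among the demethylases, 0.77 ± 0.05 on the log2 scale (SE, adjusted p = 5.71e-07), to 51.9% of the DMSO mean. Kdm5a averaged 1.26 ± 0.0528 FPKM with BMH-21 and 1.38 ± 0.0430 with DMSO (SD, n = 3 each), and its log2 fold change of -0.08 ± 0.06 did not pass (adjusted p = 0.236). The bases before the RefSeq start of Kdm5c, chrX:152232977-152233226 on the plus strand, hold a CCAAT box, in capitals. Most of these bases, the CCAAT box included, lie within the gene as GENCODE annotates it, which starts further upstream.
Kdm5c promoter: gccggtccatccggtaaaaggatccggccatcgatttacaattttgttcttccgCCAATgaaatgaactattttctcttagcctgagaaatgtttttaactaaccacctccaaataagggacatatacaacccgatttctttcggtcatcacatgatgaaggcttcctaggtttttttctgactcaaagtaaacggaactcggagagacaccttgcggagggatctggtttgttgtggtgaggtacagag

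The Kdm6 enzymes act on trimethylated lysine 27 of histone H3, the Polycomb mark. Kdm6b, also called JMJD3 and known for its part in macrophage activation, had 1.48, 1.24 and 1.90 FPKM with BMH-21 and 2.81, 2.92 and 2.56 FPKM with DMSO. It fell by 0.57 ± 0.09 on the log2 scale (SE, adjusted p = 0.000192), with no overlap of the groups. Its X-linked paralog Kdm6a averaged 1.00 ± 0.0779 FPKM with BMH-21 and 1.08 ± 0.134 with DMSO (SD, n = 3 each). The groups overlapped, and the log2 fold change of -0.05 ± 0.07 did not pass (adjusted p = 0.517).

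Kdm7a, an enzyme that removes dimethyl groups from lysines 9 and 27 of histone H3, went the other way. It lies on chr6:39136623-39206789, minus strand, and had 8.15, 8.31 and 7.07 FPKM in the BMH-21 libraries and 4.30, 5.02 and 4.36 FPKM in the DMSO libraries. All 3 BMH-21 values lay above all 3 DMSO values, and the mean rose to 1.72 times that of DMSO. Its log2 fold change was 0.67 ± 0.07 (SE, adjusted p = 1.14e-05), 0.90 above the all-gene median, and it was called higher under each scaling, at 0.56 to 0.96. Kdm7a held 19.9% to 24.0% of the summed demethylase level in BMH-21 libraries, against 9.91% to 11.4% in DMSO libraries. It ranked 6 among all members by mean level with BMH-21 and 11 with DMSO, where its range overlapped those of Hdac1-ps and Kdm2b next to it. The ratio of Kdm7a to Kdm4a was 1.39, 1.54 and 1.18 with BMH-21, against 0.596, 0.703 and 0.578 with DMSO, so the more abundant of the pair differed between groups. The antisense gene 4930599N23Rik shares 287 exonic bases with it and averaged 0.267 FPKM over all libraries. The bases before its RefSeq start, chr6:39206774-39207023 on the minus strand, are shown because it alone was called higher. Capitals mark 3 GC boxes on the strand opposite the gene, of which a pair adjoin, and 1 ETS site. The last few of the bases shown lie within the gene as GENCODE annotates it.
Kdm7a promoter: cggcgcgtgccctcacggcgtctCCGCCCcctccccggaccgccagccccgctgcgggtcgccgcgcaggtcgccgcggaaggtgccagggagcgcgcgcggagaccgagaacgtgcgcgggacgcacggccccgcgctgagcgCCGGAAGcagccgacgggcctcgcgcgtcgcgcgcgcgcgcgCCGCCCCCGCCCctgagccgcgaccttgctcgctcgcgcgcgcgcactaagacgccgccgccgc

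The 11 members below the filter were Hdac4, Hdac6, Hdac7, Hdac9, Hdac11, Kdm1b, Kdm4d, Kdm4dl, Kdm5b, Kdm5d and Kdm8, and they were left out of the test above. With no filter, where 6442 of 19233 genes were called lower and 2068 higher, Hdac6, Kdm1b and Kdm8 were called lower, at log2 fold changes of -0.22, -0.36 and -0.38 (limma, adjusted p = 0.00131, 0.000619 and 0.0175), and the other 8 did not pass. In 5 of them, Hdac4, Hdac6, Hdac11, Kdm1b and Kdm8, every BMH-21 library lay below every DMSO library, and the groups of the other 6 overlapped. Among all genes below the filter 22.6% did not overlap in 1 direction or the other. Hdac6, the cytosolic tubulin deacetylase, averaged 0.464 ± 0.0153 FPKM with BMH-21 and 0.704 ± 0.0263 with DMSO (SD, n = 3 each). Kdm1b, a second flavin oxidase, averaged 0.540 ± 0.0466 FPKM with BMH-21 and 0.980 ± 0.0231 with DMSO, but shares 505 exonic bases with the abundant Dek on the other strand. Kdm8 averaged 0.584 ± 0.0407 FPKM with BMH-21 and 1.07 ± 0.236 with DMSO. Kdm5d, the Y-linked paralog of Kdm5c, averaged 0.288 ± 0.104 FPKM with BMH-21 and 0.450 ± 0.0650 with DMSO, and 75 other genes resemble part of it. Hdac4, a class IIa enzyme, ran from 0.451 to 0.566 FPKM with BMH-21 and from 0.573 to 0.688 with DMSO, and Hdac11, the single class IV enzyme, from 0.187 to 0.237 with BMH-21 and from 0.270 to 0.792 with DMSO. The class IIa genes Hdac7 and Hdac9 and the demethylase Kdm5b lay between 0.0922 and 0.517 FPKM in all libraries. Kdm4d and its pseudogene Kdm4dl were listed at 0 in all but 3 of their values and never exceeded 0.0810 FPKM.

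Because 58.4% of tested genes were called lower, how the libraries are scaled decides the smaller changes. On the log2 scale the all-gene median shifted by 0.24 with median-ratio scaling, by 0.20 with upper-quartile scaling, by 0.24 with quantile normalization and by -0.10 with equal column totals. With median-ratio scaling 38.2% of all tested genes were called higher and 35.3% lower. Under it 6 Hdac, 5 Sirt and 6 Kdm genes were called lower, and Hdac3, Sirt2, Kdm2b and Kdm7a higher. The family medians were -0.59 for Hdac, -0.23 for Sirt and -0.05 for Kdm with this scaling. With upper-quartile scaling, where 34.4% of all tested genes were called higher and 39.8% lower, the counts of members were the same. With equal column totals, where 14.2% were called higher and 67.9% lower, 7 Hdac, 7 Sirt and 10 Kdm genes were called lower and Kdm7a higher. With quantile normalization, which gives all libraries the same distribution, 36.1% of all tested genes were called higher and 35.9% lower, and among the members 6 Hdac, 3 Sirt and 3 Kdm genes were called lower and Kdm2b, Kdm3a, Kdm5a, Kdm6a and Kdm7a higher, with a Kdm median of 0.00. Calls of a fall that held under every scaling were those of Hdac1, Hdac1-ps, Hdac2, Hdac5, Hdac8, Hdac10, Sirt4, Sirt6, Sirt7, Kdm1a, Kdm5c and Kdm6b.

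**Figure D4:**
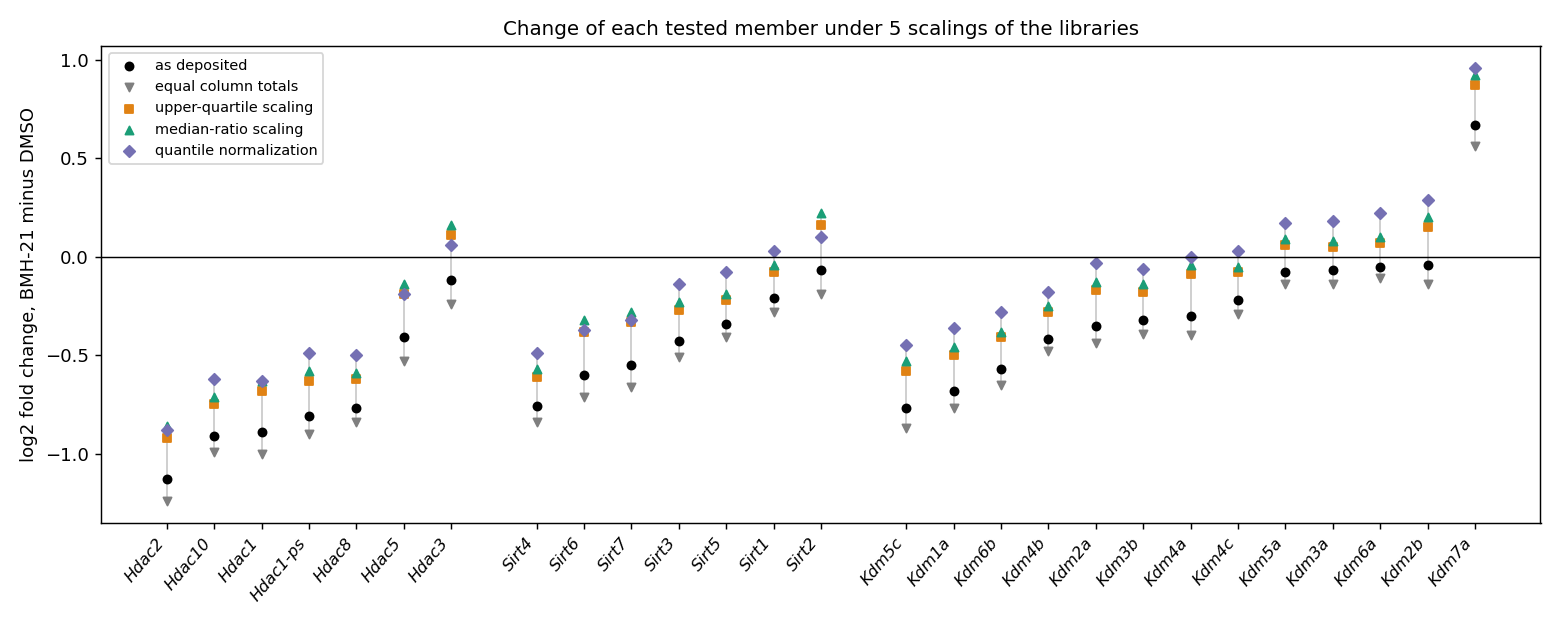
Each column is 1 tested member and each mark its log2 fold change, BMH-21 minus DMSO on log2(FPKM + 1), under 1 of 5 scalings of the libraries. Hdac2 stays lowest in every scaling and Kdm7a highest, while Hdac3, Sirt2, Kdm2b, Kdm3a, Kdm5a and Kdm6a fall on both sides of 0. So do Sirt1 and Kdm4c, which are above 0 only with quantile normalization, each at 0.03.

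The partners of these enzymes were described from lists, with the table as deposited, and counts after median-ratio scaling close each group. The counts stand beside 58.4% of all tested genes called lower and 19.9% higher as deposited, and 35.3% lower and 38.2% higher after that scaling. Of 12 NuRD genes, the complex that pairs Hdac1 and Hdac2 with a chromatin remodeller, 7 were lower, 3 higher and 2 did not pass, with a median log2 fold change of -0.39, beside -0.23 over all tested genes. Its remodellers went opposite ways. Chd3 had 27.5, 26.7 and 26.0 FPKM with BMH-21 and 15.4, 14.8 and 14.5 with DMSO (log2 fold change 0.80 ± 0.04, adjusted p = 7.95e-08). Chd4 had 6.89, 7.08 and 7.29 FPKM with BMH-21 and 13.5, 13.8 and 12.4 with DMSO (-0.81 ± 0.05, adjusted p = 2.64e-07). Chd4 was named after its values were seen. Rbbp4, a histone chaperone of NuRD and SIN3, fell by 0.88 ± 0.05 (adjusted p = 9.31e-08). After median-ratio scaling 6 NuRD genes were lower and 5 higher.

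Of 14 tested SIN3 genes 9 were lower, 1 higher and 4 did not pass, beside 58.4% of all tested genes lower and 19.9% higher, with a median of -0.37. Sap30, which stabilizes that complex, averaged 90.7 ± 1.45 FPKM with BMH-21 and 148.6 ± 6.23 with DMSO (SD, n = 3 each), a log2 fold change of -0.70 ± 0.04 (adjusted p = 1.67e-07). Brms1l, another subunit, fell by 0.60 ± 0.05 (adjusted p = 1.59e-06). Of 14 genes of the NCoR, SMRT and CoREST complexes 11 were lower, 0 higher and 3 did not pass, with a median of -0.46. Rcor2, a scaffold of CoREST, fell by 1.06 ± 0.06 (adjusted p = 2.16e-07) and, like Rcor3, also called lower, passed the filter only through DMSO. Of 9 tested MEF2 and 14-3-3 genes, the transcription factors and adaptor proteins that bind class IIa enzymes, 7 were lower and 2 did not pass, with a median of -0.25. The adaptors Ywhab and Ywhaq fell by 0.45 ± 0.05 and 0.33 ± 0.04 (adjusted p = 1.21e-05 and 2.52e-05), and Ywhaq did not pass with median-ratio scaling, at -0.04. After that scaling 7 SIN3 genes were lower and 4 higher, beside 35.3% and 38.2% of all tested genes, and 7 of the NCoR, SMRT and CoREST genes lower and 2 higher. Of the MEF2 and 14-3-3 genes 1 was then lower and 3 higher, with a median of 0.03, so the direction of that group rests on the scaling.

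The enzymes that add the same groups were counted in the same way, against 58.4% of all tested genes called lower as deposited and 35.3% after median-ratio scaling. Of 12 tested acetyltransferases 9 were lower, 1 higher and 2 did not pass, with a median of -0.55. Kat2a, the GCN5 acetyltransferase, averaged 14.1 ± 0.436 FPKM with BMH-21 and 28.4 ± 1.03 with DMSO (SD, n = 3 each), a log2 fold change of -0.96 ± 0.04 (adjusted p = 3.34e-08). Hat1, which acetylates newly made histone H4, fell by 0.71 ± 0.04 (adjusted p = 1.74e-07). Of 31 tested methyltransferases 25 were lower, 5 higher and 1 did not pass, with a median of -0.44, and 2 of the 25, Kmt2c and Smyd3, passed the filter only through DMSO. Kmt2d, which methylates lysine 4 of histone H3 at enhancers, had 1.11, 1.07 and 1.16 FPKM with BMH-21 and 4.35, 4.29 and 3.87 with DMSO, a log2 fold change of -1.29 ± 0.06 (adjusted p = 2.89e-08). Ezh2, the Polycomb enzyme that writes the mark Kdm6 enzymes remove, averaged 1.86 ± 0.138 FPKM with BMH-21 and 5.14 ± 0.169 with DMSO, and fell by 1.11 ± 0.06 (adjusted p = 6.28e-08). After median-ratio scaling 8 acetyltransferases were lower and 2 higher, and 18 methyltransferases lower and 5 higher.

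Of 12 tested genes for other Jumonji proteins 6 were lower, 3 higher and 3 did not pass, beside 58.4% of all tested genes lower and 19.9% higher, with a median of -0.17. Jmjd6 and Riox2 fell by 0.61 ± 0.05 and 0.58 ± 0.07 (adjusted p = 1.16e-06 and 2.65e-05). Of 8 tested genes that make or use NAD, the cosubstrate of sirtuins, 5 were lower, 1 higher and 2 did not pass, with a median of -0.34. Parp1 and Parp2, which consume NAD at broken DNA, fell by 0.83 ± 0.05 and 0.86 ± 0.05 (adjusted p = 1.71e-07 and 1.77e-07). After median-ratio scaling 4 of the other Jumonji genes were lower and 6 higher, with a median of 0.08, and 3 of the NAD genes lower and 2 higher, beside 35.3% of all tested genes lower and 38.2% higher.

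**Figure D5:**
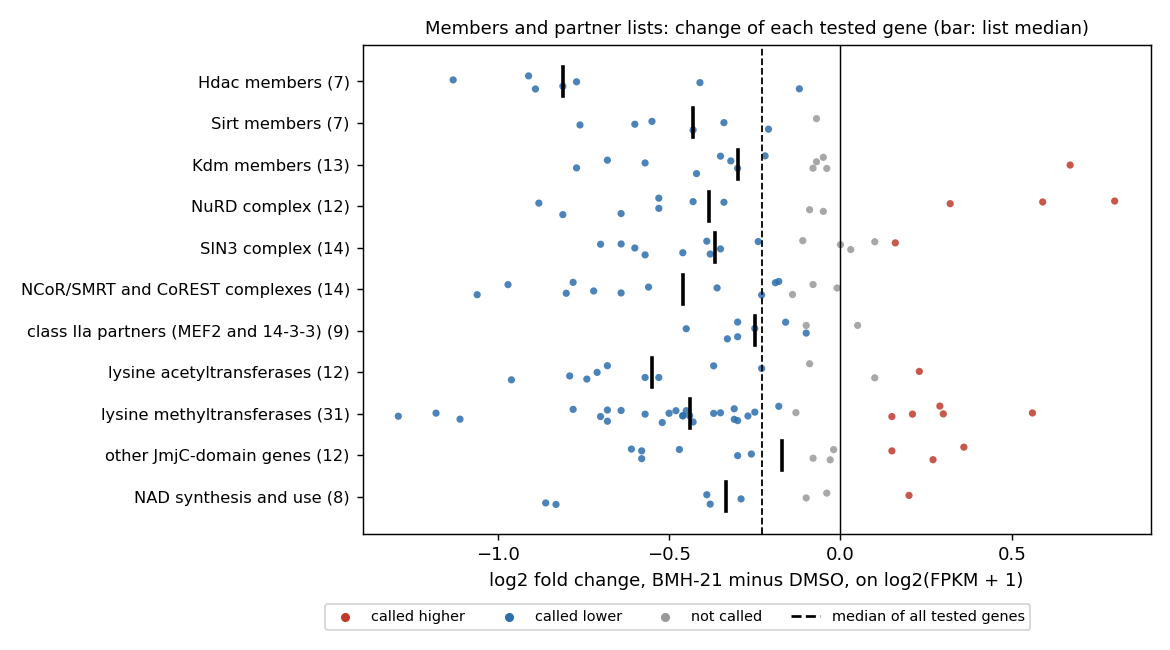
Each point is the log2 fold change of 1 tested gene, BMH-21 minus DMSO on log2(FPKM + 1), in the 3 families and 8 partner lists, with the number tested in brackets and a bar at the list median. The dashed line is the all-gene median of -0.23. The values are as deposited. The Hdac genes have the lowest median, -0.81. Called higher were 3 of 12 NuRD genes, 3 of 12 other Jumonji genes and 5 of 31 methyltransferases, beside 19.9% of all tested genes.

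Promoters of 28 of the 38 members were matched in RefSeq on GRCm38.p6, and the 250 bases before each start were searched on both strands. A gene was counted once where any of its starts held the letters, and the same was done for all 27018 genes with an entry. The GC box GGGCGG was found for 19 of the 28 members (67.9%), against 35.4% of all genes. The 28 members had 40 entries and the 27018 genes 32841, so a member had more starts in which to match. All genes with an entry also include genes that were not tested here. The members' entries were also richer in G and C, with a median of 60.0% against 52.4% over all entries. The part of these differences in the counts was not tested. A CCAAT box (CCAAT) was found for 15 members (53.6%), against 37.5% of all genes. The ETS letters CCGGAAG were found for 6 members (21.4%), against 7.83% of all genes, namely Kdm3a, Kdm4d, Kdm7a, Sirt3, Sirt6 and Sirt7. The E2F letters TTTCCCGC were found for Sirt4 alone, against 1.03% of all genes, and TTTGGCGC for 0 members, against 0.485%. The TATA box TATAAA and the E-box CACGTG were found for 3 members each (10.7%), against 14.3% and 6.86% of all genes, and the CRE letters TGACGTCA for 0, against 1.77%. None of the letters searched contains another. GC boxes were found both for Hdac2, which was called lower, and for Kdm7a, which was called higher, and neither for Sirt4 nor for Kdm5c.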

How the data were processed

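The authors deposited 1 table of normalised values for 6 libraries. The FPKM values in it were made by the authors from reads scaled by transcript length and library size, as their range and totals imply, since no label names the unit. Trimmomatic 0.38, SAMtools, HISAT2 and mm10 are named per the submitters' processing notes. Which tools counted and normalised the reads, with which annotation, is not given in the sources used here. Per the labels' protocols, the kit selected RNA with oligo-dT and is not stated to mark strand, so overlapping and antisense genes cannot be told apart. FPKM values are shares of a library and carry no information on the total RNA of a cell.

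Depth was inferred from how low values are spaced. In each library 75.4% to 77.5% of 1699 to 2054 low genes with a single transcript fell within 0.01 of whole reads (20 at most), which was not enough to recover counts. Genes with 1 FPKM or more in at least 3 libraries, 9748 in all, were fitted on log2(FPKM + 1) with limma 3.58.1 (R 4.3.3) and a trended prior variance. Adjusted p-values are Benjamini-Hochberg values over these genes. The fit was tested on simulated data first. For 1 gene alone, the smallest exact permutation p from 3 against 3 libraries is 0.1.

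The members and lists were chosen with earlier results of these data known. Every member is accounted for, and from each partner list up to 2 tested genes were named in ascending order of p, of which 1 is not reported here. Positions are from GENCODE M21 on GRCm38, the assembly of mm10, and that of Hdac1-ps and all promoters from RefSeq on GRCm38.p6. Alternatives covered the pseudocount, the filter, the scaling of libraries, the variance trend, a replicate block and leaving out libraries.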

Additional observations from a re-analysis of the deposited data

How the results depend on the processing

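Scaling moved the calls most. Called higher were 1 Hdac, 1 Sirt and 2 Kdm genes with median-ratio scaling, 1, 1 and 2 with upper-quartile scaling, and 5 Kdm genes with quantile normalization, which left 3 Sirt and 3 Kdm genes called lower. Over all tested genes the counts called higher were 3724, 3349 and 3517 under these scalings, against 1938 as deposited, and those called lower were 3442 with median-ratio scaling and 3498 with quantile normalization, against 5690. By construction these scalings move the all-gene median towards 0.

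The sign turned, in the order median-ratio, upper-quartile and quantile, for Hdac3 (0.16, 0.11 and 0.06), Sirt2 (0.22, 0.16 and 0.10), Kdm2b (0.20, 0.15 and 0.29), Kdm3a (0.08, 0.05 and 0.18), Kdm5a (0.09, 0.06 and 0.17) and Kdm6a (0.10, 0.07 and 0.22). It also turned with quantile normalization for Sirt1 (0.03) and Kdm4c (0.03). Leaving out 1 library at a time put Kdm6a at -0.08 to 0.00, the last without DMSO replicate 3, and without DMSO replicates 1 and 2, a choice made after seeing the data that assumes the lone DMSO library to vary like the BMH-21 libraries, Kdm3a was at 0.01.

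Leaving out 1 library at a time gave 6 to 7 Hdac and 5 to 6 Sirt genes called lower, 8 Kdm genes lower and 1 higher throughout, and 5450 to 5597 lower and 1816 to 1876 higher over all genes. Same-numbered libraries did not deviate together (r = -0.112, -0.0939 and -0.0638). Libraries prepared as pairs need not deviate together, so whether the numbers pair them is not known. The replicate block gave 7 Hdac, 6 Sirt and 8 Kdm genes lower, 1 Kdm gene higher, and 5608 lower and 1894 higher over all genes. Of the comparisons of a member with an alternative, 416 kept direction and side of the threshold, 22 turned sign, of which 3 lost and 8 gained a call, and 18 lost and 3 gained one with the sign kept. Relative to all tested genes the family medians ran from -0.75 to -0.33 for Hdac and from -0.39 to -0.14 for Sirt over all alternatives. Those for Kdm ran from -0.18 to 0.00. With no filter, where the all-gene median was -0.04, Sirt stood below Hdac. Members near 1 FPKM rest on fewer reads per kb of transcript than the abundant members, which limits their precision.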
